A study of Homo sapiens with 40 samples.

Results

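The 32 genes described here encode the enzymes of cholesterol and fatty acid synthesis and the proteins that regulate them. They comprise 7 genes of the mevalonate and isoprenoid steps, 3 that make squalene and lanosterol, 8 that turn lanosterol into cholesterol, 4 that regulate the sterol-sensing transcription factors, 5 of acetyl-CoA supply and fatty acid synthesis, 3 desaturases, 1 sterol transporter and 1 glycerolipid enzyme. The genes were chosen by name and matched through Ensembl identifiers, and all 32 were found among 62263 genes in the deposited table. All 32 passed the filter on low counts, which kept 16735 genes for testing. The libraries came from BEAS-2B, an immortalised human bronchial epithelial line, in 2 derived lines named shControl and shIGF2BP3 after their hairpins; IGF2BP3 is a protein that binds mRNA. All cells were kept in RPMI medium with 10% serum and moved overnight to 2% serum. They were then left unstimulated or given the type 2 cytokine IL-13 at 100 ng/ml, and harvest followed after 24 h. Frac-seq sequences total mRNA (input) beside the mRNA that sediments with several ribosomes (polysome), which gave 8 groups of 5 libraries. The labels name 1 line for each hairpin, and the titles of the samples use siC and siIGF2BP3, although the cells are described as stable hairpin lines. No label says that libraries of a group came from separate cultures, so p-values measure the spread between these libraries, which may be technical.

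Cholesterol and fatty acid synthesis share one control circuit. When sterol in the endoplasmic reticulum membrane is low, SCAP escorts the SREBP precursors encoded by SREBF1 and SREBF2 to the Golgi, where they are cut to release transcription factors that bind sterol regulatory elements (SREs) in the promoters of these genes. INSIG1 holds SCAP back when sterol is plentiful, and its own gene is a target of the circuit. SREBF2 is best known for the cholesterol pathway and SREBF1 for fatty acid synthesis, and the factors usually act together with NF-Y, which binds the CCAAT box, and Sp1, which binds the GC box. Dividing epithelial cells use the products to build membranes.

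Promoter sequences are shown for 4 members that were picked for their matches. SREBF2 was the only member with a match to the classical SRE. MVK, NSDHL and MSMO1 held 4 or more CCAAT boxes each and no match to the SRE. Each line gives the 250 bases before a RefSeq transcription start in the GRCh38.p14 build, all on the plus strand, with matches to the SRE or to the CCAAT box in capitals. The positions are chr22:41832855-41833104 for SREBF2, which encodes the transcription factor, and chr12:109573544-109573793 for MVK, mevalonate kinase. They are chrX:152830813-152831062 for NSDHL, a sterol dehydrogenase, and chr4:165327419-165327668 for MSMO1, a sterol methyl oxidase.
SREBF2: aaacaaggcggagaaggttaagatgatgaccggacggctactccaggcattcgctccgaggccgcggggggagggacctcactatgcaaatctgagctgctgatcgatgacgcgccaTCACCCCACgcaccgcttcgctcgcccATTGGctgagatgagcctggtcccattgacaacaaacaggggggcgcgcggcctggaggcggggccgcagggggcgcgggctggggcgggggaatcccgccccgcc
MVK: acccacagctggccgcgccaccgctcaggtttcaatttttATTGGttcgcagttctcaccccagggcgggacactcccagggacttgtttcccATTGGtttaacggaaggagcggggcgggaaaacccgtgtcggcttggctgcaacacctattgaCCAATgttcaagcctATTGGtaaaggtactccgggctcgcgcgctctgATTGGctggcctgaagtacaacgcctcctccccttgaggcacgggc
NSDHL: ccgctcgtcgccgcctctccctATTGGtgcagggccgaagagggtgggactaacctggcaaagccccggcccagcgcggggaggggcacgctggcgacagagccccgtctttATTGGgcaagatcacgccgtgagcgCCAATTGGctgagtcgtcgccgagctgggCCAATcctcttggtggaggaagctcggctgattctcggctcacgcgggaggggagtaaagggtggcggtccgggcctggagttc
MSMO1: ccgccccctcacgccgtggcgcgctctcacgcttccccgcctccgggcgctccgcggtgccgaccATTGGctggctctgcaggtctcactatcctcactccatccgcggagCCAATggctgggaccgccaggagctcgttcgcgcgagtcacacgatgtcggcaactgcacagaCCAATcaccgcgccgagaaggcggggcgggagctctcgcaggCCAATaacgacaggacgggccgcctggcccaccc
The SREBF2 window held 1 SRE and 1 CCAAT box, the MVK and NSDHL windows held 5 CCAAT boxes each, and the MSMO1 window held 4. In NSDHL, a CCAAT box on one strand overlapped one on the other and both were counted.

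RefSeq windows reaching from 250 bases before to 50 bases after a start were at hand for 28 of the 32 members, in 40 windows. The SRE was searched as TCACNCCAC on both strands and was found in 1 of the 40 windows (2.5%), against 1.13% of all 35116 windows of the same length. The CCAAT box was searched as CCAAT on both strands and was present in 25 of the 40 windows (62.5%), belonging to 21 members, against 34.6% of all windows. The GC box was searched as GGGCGG on both strands and was present in 35 of the 40 windows (87.5%), belonging to 27 members, against 45.0% of all windows. These are matches of letters in short windows and describe the promoters only. ACAT2, FDFT1, SQLE and FASN had no window in the table.

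Input libraries held 14044352 to 40441061 counts and polysome libraries 1816848 to 34082191. The 3 polysome libraries under 5000000 counts were all from the line labelled knockdown. IGF2BP3 itself stood at 35.2 ± 11.3 CPM (counts scaled to a common library size; SD, n = 5) in unstimulated control input and 24.9 ± 3.02 CPM in unstimulated knockdown input, and at 11.2 ± 6.83 and 11.2 ± 8.6 CPM in the matching polysome groups. Its log2 difference over both treatments was -0.48 ± 0.259 (standard error) in input, which did not pass the test (edgeR quasi-likelihood, adjusted p = 0.956), so the lines are called by their labels. Keratins KRT8, KRT18, KRT7 and KRT19 had input medians of 845, 579.8, 120 and 35.3 TPM (transcripts scaled to a common total). The other epithelial markers, KRT5, EPCAM and CDH1, had 0.0778, 0.299 and 0.143 TPM. The mesenchymal markers VIM, COL1A1, PDGFRB and CDH2 had input medians of 1278, 103, 30.7 and 24.6 TPM, VIM above each of these keratins. The other mesenchymal markers, COL1A2 and COL3A1, were low at 5.05 and 0.135 TPM. All 4 markers of fat and liver cells, the other cells known for lipid synthesis, were at or near 0, with ALB and TTR at 0 in every library and a highest summed level of 0.112 TPM. Of the 5 haematopoietic markers, CD14 alone exceeded 1 TPM, with an input median of 15.1 TPM.

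The libraries of unstimulated control replicate 1 stood apart for these genes. In its input library all 32 members lay below the mean of the other 4 libraries of the group, with a median log2 difference of -1.03, whereas the median over all tested genes was -0.054. There, 31 of the 32 members were the lowest of the 5 libraries, a position that 30.4% of all tested genes held. INSIG1 read 45.3 CPM in this library and 197, 201, 167 and 247 CPM in the other 4. HMGCS1, the enzyme that makes the precursor of mevalonate, read 42.6 CPM against 259, 367, 245 and 275 CPM. SQLE, squalene epoxidase, read 38.9 CPM against 190.5, 172, 128 and 221 CPM. Each of these 3 genes was thus several-fold lower in 1 library than in any other of its group. The polysome library of the same number went the same way, with 29 of 32 members below the mean of the other 4, a median of -0.55 and 16 members lowest, against 20.1% of all genes.

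Both libraries of this number carried high levels of several stress genes, but not of the endoplasmic reticulum chaperone HSPA5. ASNS, asparagine synthetase, stood at 346 CPM in input against 2.92 to 27.7 CPM in the other 19 input libraries. TRIB3 stood at 375 CPM against 21.2 to 62.1 CPM, and ATF3 at 145 CPM against 13.8 to 28.5 CPM. The chaperone HSPA5, at 517 CPM, lay inside the range of 239.5 to 689 CPM of the others. In polysome RNA, ASNS stood at 197 CPM against 1.18 to 13.6 CPM in the other 19 libraries. There, TRIB3 stood at 397 CPM against 34.8 to 105 CPM, and ATF3 at 304 CPM against 33.9 to 66.2 CPM. HSPA5, at 132 CPM, again lay inside the range of the others, 56.2 to 142 CPM. The part of this state in the values of the sterol genes was not tested.

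Members also moved together in other libraries. In unstimulated knockdown input, all 32 members of replicate 4 lay below the mean of the other 4 libraries (median log2 -0.62, all genes 0.0036). There, 26 members were the lowest of the group, against 18.1% of all genes. In IL-13 knockdown input, all 32 members of replicate 4 were again below (median -0.47), and 17 were lowest, against 11.8% of all genes. On the other side, 31 of 32 members lay above the mean of the others in unstimulated control input replicate 5 (median 0.56) and in unstimulated knockdown input replicate 2 (median 0.44). The direction did not always carry over to the polysome library of the same number: in unstimulated knockdown replicate 4, 31 of 32 members were above the mean of the other polysome libraries, with a median of 0.60. Other libraries were evenly split, such as IL-13 knockdown polysome replicate 1, with 16 members below and 16 above. The pathway therefore varied as a block in some libraries of a group, in either direction, but not in all.

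**Figure D1:**
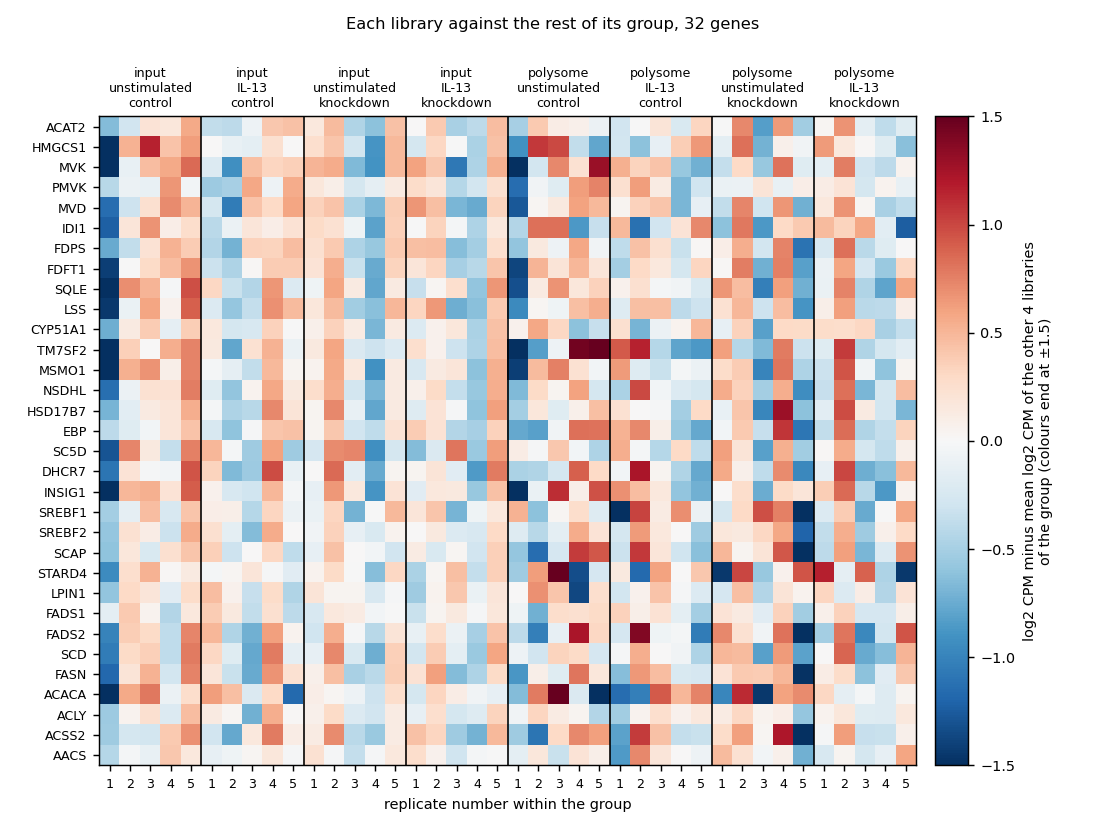
Difference in log2 CPM between each of the 40 libraries (columns, by replicate number within the 8 groups) and the mean of the other 4 libraries of its group, for the 32 genes (rows); blue is lower and red is higher, and colours end at ±1.5. The column of unstimulated control replicate 1 in input is blue throughout, with a median of -1.03, and columns tend to hold one colour over most rows.

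In TPM, which corrects for transcript length and so allows genes to be compared, the members were abundant. Their median level in input was 72.1 TPM against 5.39 TPM for all tested genes, and each of the 32 lay above that median. FDPS, farnesyl diphosphate synthase, was highest at 464 ± 107 TPM in input (SD over 20 libraries), followed by the desaturase FADS2 at 328 ± 87.9 TPM and the thiolase ACAT2 at 317 ± 72.3 TPM. LPIN1, a phosphatidate phosphatase, was lowest at 7.39 ± 1.69 TPM, after the sterol desaturase SC5D at 12.8 ± 4.66 TPM and the acetyl-CoA carboxylase ACACA at 18.1 ± 4.91 TPM. No 2 neighbours among the 31 steps of this order were apart by more than their SDs. Among the transcription factors, SREBF2 stood at 130 ± 24.0 TPM and SREBF1 at 40.6 ± 9.71 TPM.

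The polysome order differed from the input order for some members. FASN, fatty acid synthase, ranked 9 of 32 in input at 122 ± 33.8 TPM and 30 of 32 in polysome RNA at 8.6 ± 2.16 TPM. ACLY, which makes cytosolic acetyl-CoA from citrate, ranked 7 in input at 169 ± 30.7 TPM and 24 in polysome RNA at 33.5 ± 6.60 TPM. ACSS2, AACS and ACACA of the same branch kept their places, with ranks 26, 28 and 30 in input and 25, 29 and 31 in polysome RNA. Outside this branch, HMGCS1 moved from rank 13 to rank 26 and LSS, lanosterol synthase, from rank 12 to rank 20. In the other direction HSD17B7, a sterol ketoreductase, moved from rank 27 to rank 16, and FDPS was highest in both fractions. The median over the members was 70.0 TPM in polysome RNA.

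**Figure D2:**
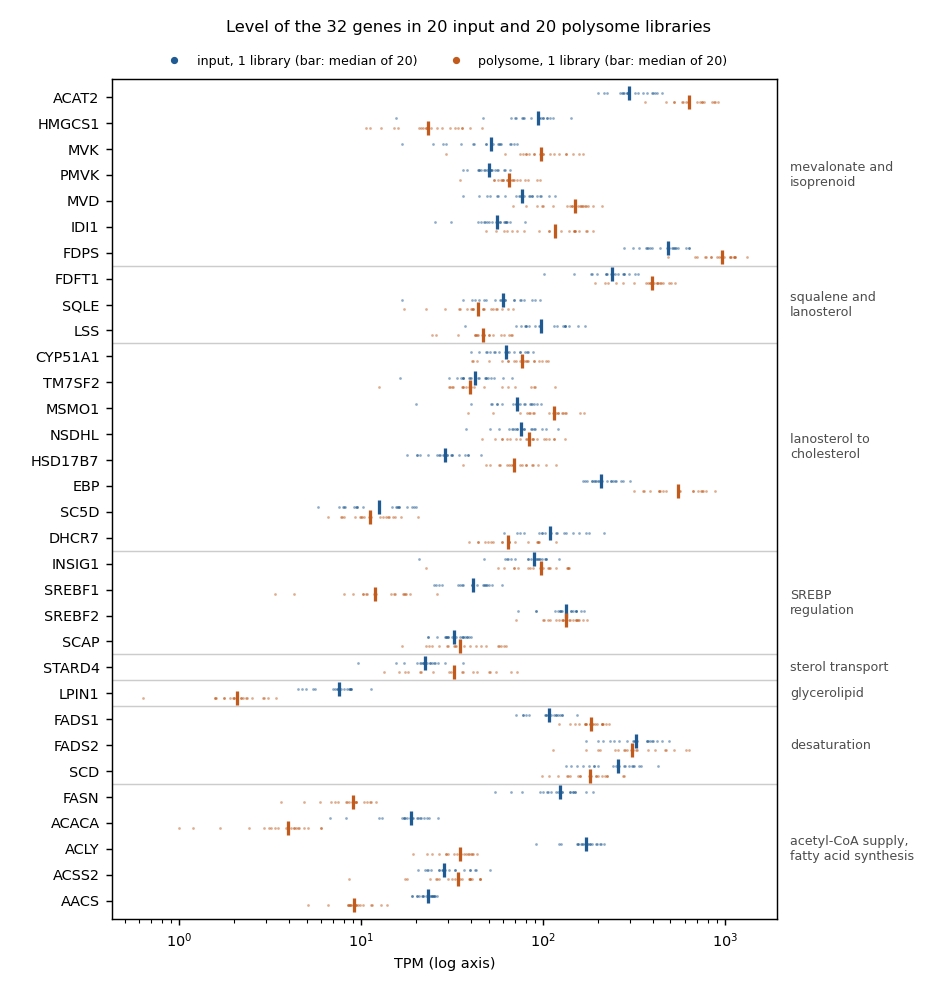
Level in TPM (log axis) of each of the 32 genes, grouped by role, in 20 input libraries (blue dots) and 20 polysome libraries (orange dots), with a bar at the median. FASN, ACACA, ACLY, LPIN1 and SREBF1 sit lower in polysome RNA, and EBP, ACAT2, FDPS and HSD17B7 sit higher.

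The comparison of polysome with input RNA asked which of these mRNAs were over- or under-represented among ribosome-bound mRNA. Mevalonate enzymes were mostly higher in the polysome fraction, and FASN, ACACA, ACLY and AACS, 4 of the 5 members of acetyl-CoA supply and fatty acid synthesis, were lower. Over the mean of the 4 combinations of line and treatment, 14 of the 32 members were called higher in polysome RNA and 11 lower at an adjusted p under 0.05 (edgeR quasi-likelihood test, Benjamini-Hochberg over 16735 genes), and 7 were not called. Among all genes tested, 26.2% were called higher and 38.9% lower, so the members' share of higher calls was above the background and their share of lower calls near it. The members were chosen with such results known, and all 32 lay above the median input TPM of tested genes. The comparison with the background is therefore a description and not a test. The members' median log2 fold change was 0.27, against -0.24 for all tested genes, and it was 0.41 without the shallow polysome library of unstimulated knockdown replicate 5. Fold changes are of shares of each library, and in bulk RNA fewer cells and less RNA per cell cannot be told apart. An offset for transcript length in each library gave 18 higher and 9 lower, and moved the median of all genes to -0.12.

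The calls were much alike in the 4 combinations. In unstimulated control cells 10 members were called higher and 8 lower, against 17.4% and 22.8% of all genes. In IL-13 control cells 9 were called higher and 8 lower (16.7% and 22.6% of all genes). In unstimulated knockdown cells 9 were called higher and 8 lower (16.4% and 22.0%), and in IL-13 knockdown cells 10 and 9 (16.0% and 23.3%). ACAT2, MVK, MVD, IDI1, FDPS, HSD17B7, EBP and FADS1 were called higher in all 4, and HMGCS1, LSS, SREBF1, LPIN1, FASN, ACACA, ACLY and AACS lower in all 4. No member was called in opposite directions, and 30 of 32 kept their sign. The share of all tested genes that were called alike in all 4 was not counted. This agreement is therefore not shown to be particular to these genes. The 4 combinations are separate sets of libraries, but the choice of the 32 genes was made with such results known.

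In the mevalonate branch, 6 of 7 genes were called higher over the mean of the 4 combinations and 1 lower. ACAT2, which starts the branch by joining acetyl-CoA units, read 245, 299.8, 394, 388 and 482 CPM in unstimulated control input and 671, 1102, 940.2, 923 and 840.4 CPM in the matching polysome libraries. All 5 polysome values exceeded all 5 input values, and the mean log2 fold change over the 4 combinations was 1.18 ± 0.113 (edgeR, adjusted p = 8.27e-12). IDI1, isopentenyl diphosphate isomerase, read 51.6, 113, 148, 108 and 118 CPM in unstimulated control input and 161, 324, 324, 127 and 169 CPM in polysome RNA. Its polysome and input values overlapped, with a mean log2 fold change of 1.17 ± 0.146 (edgeR, adjusted p = 5.08e-09). MVK, FDPS and MVD, the decarboxylase that ends the mevalonate steps, followed with 1.15, 1.12 and 1.01, and PMVK, phosphomevalonate kinase, with 0.50.

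HMGCS1 was the exception in this branch and went the other way. It read 42.6, 259, 367, 245 and 275 CPM in unstimulated control input and 34.9, 104, 100.3, 47 and 37.6 CPM in polysome RNA. Apart from the low input library of replicate 1, every input value was above every polysome value. The mean log2 fold change was -1.71 ± 0.171 (edgeR, adjusted p = 2.75e-11), a 3.26-fold lower share. In IL-13 control cells HMGCS1 read 301, 283, 277, 343 and 302 CPM in input and 70.9, 58.5, 77, 101 and 118 CPM in polysome RNA, without overlap.

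In the middle of the pathway the genes divided. FDFT1, squalene synthase, was called higher at 0.79 ± 0.139, whereas LSS, lanosterol synthase, was called lower at -0.93 ± 0.141 and SQLE at -0.42 ± 0.159 (edgeR, adjusted p = 0.0188 for SQLE). Of the 8 genes from lanosterol to cholesterol, 4 were called higher, 1 lower and 3 were not called. EBP, the sterol isomerase, read 138, 155, 168, 189 and 218 CPM in unstimulated control input and 325, 317, 483, 788 and 782 CPM in polysome RNA. The lowest of these polysome values was above the highest input value, and the mean log2 fold change was 1.5 ± 0.141 (edgeR, adjusted p = 5.68e-12). HSD17B7 read 23, 31.1, 36.4, 37.5 and 45.7 CPM in input and 74.8, 109, 89.4, 103 and 127 CPM in polysome RNA of the same group. Its groups again did not overlap, at a mean log2 fold change of 1.43 ± 0.137 (edgeR, adjusted p = 7.78e-12). MSMO1 and CYP51A1 were called higher at 0.69 and 0.39. DHCR7, which carries out the last reduction to cholesterol, was called lower at -0.70 ± 0.163, and the values of TM7SF2, NSDHL and SC5D were 0.37, 0.22 and -0.13.

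The fatty acid branch held the steepest values. FASN read 371, 792, 950.2, 614 and 1079 CPM in unstimulated control input and 37.4, 63.7, 55.2, 94.7 and 67 CPM in polysome RNA. Over all libraries the input values ran from 371 to 1345 CPM and the polysome values from 25.4 to 105 CPM, far apart. The mean log2 fold change was -3.71 ± 0.153 (edgeR, adjusted p = 4.52e-22), a 13.1-fold lower share. ACLY read 390.1, 544, 601, 470.1 and 681 CPM in unstimulated control input and 106, 131, 117, 112 and 85.5 CPM in polysome RNA, again with no overlap. Its mean log2 fold change was -2.23 ± 0.0853 (edgeR, adjusted p = 5.11e-23). AACS, acetoacetyl-CoA synthetase, fell by 1.18 on the log2 scale, and ACSS2, acetyl-CoA synthetase, was not called at 0.15 ± 0.162.

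ACACA, the enzyme that commits acetyl-CoA to fatty acid synthesis, read 48.6, 155, 176, 108 and 131 CPM in unstimulated control input and 6.47, 14.3, 23, 8.20 and 3.90 CPM in polysome RNA. Its groups did not overlap, and the mean log2 fold change was -3.24 ± 0.199 (edgeR, adjusted p = 3.45e-17). The size of this change depended on length: with the offset for transcript length it was -2.08 (edgeR, adjusted p = 3.87e-14). The length behind the deposited values, count over TPM relative to the median tested gene, ran from 3.15 to 3.83 for ACACA over the 20 input libraries and from 0.738 to 3.98 over the 20 polysome libraries. Polysome counts of ACACA were thus assigned in part to shorter transcripts.

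Among the desaturases, FADS1 was called higher at 0.91 ± 0.0807, SCD, stearoyl-CoA desaturase, lower at -0.37 ± 0.137, and FADS2 was not called at 0.22 ± 0.172. LPIN1 read 21.6, 35.5, 33.2, 27.2 and 35 CPM in unstimulated control input and 7.72, 11.2, 9.70, 3.61 and 8.81 CPM in polysome RNA. The groups did not overlap, and the mean log2 fold change was -1.68 ± 0.109 (edgeR, adjusted p = 1.54e-16). STARD4, which carries sterol between membranes, was called higher at 0.74 ± 0.175.

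The 2 SREBP genes differed from each other. SREBF1 read 90.2, 111, 155, 105 and 151 CPM in unstimulated control input and 60.2, 32.1, 45.8, 52.3 and 40.5 CPM in polysome RNA. It was lower in polysome RNA without overlap, and over all libraries the lowest input value of 90.2 CPM stood just above the highest polysome value of 90.1 CPM, at a mean log2 fold change of -1.54 ± 0.149 (edgeR, adjusted p = 1.19e-11). SREBF2 read 385, 602, 564, 445 and 723 CPM in input and 561, 493, 573, 847 and 698 CPM in polysome RNA of the same group. Its values overlapped and its mean log2 fold change of 0.14 ± 0.106 was not called (edgeR, adjusted p = 0.256). The difference between the 2 genes was not itself tested. SCAP was called at 0.38 ± 0.147 (edgeR, adjusted p = 0.0221), and INSIG1 was not at 0.31 ± 0.169 (edgeR, adjusted p = 0.101).

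Calls for these regulators turned on single libraries. The SCAP call was lost without IL-13 control polysome replicate 2 (0.31, edgeR adjusted p = 0.0538) or without unstimulated control polysome replicate 4 (0.32, adjusted p = 0.05), and with the 2 libraries of a line, treatment and number as a block (0.29, adjusted p = 0.0657). INSIG1 passed the threshold without unstimulated control polysome replicate 1 (0.37, edgeR adjusted p = 0.0302) or without unstimulated knockdown polysome replicate 5 (0.43, adjusted p = 0.0298). SREBF2 passed it without unstimulated knockdown polysome replicate 5 (0.29, edgeR adjusted p = 0.00364), 1 of the 3 shallow libraries.

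**Figure D3:**
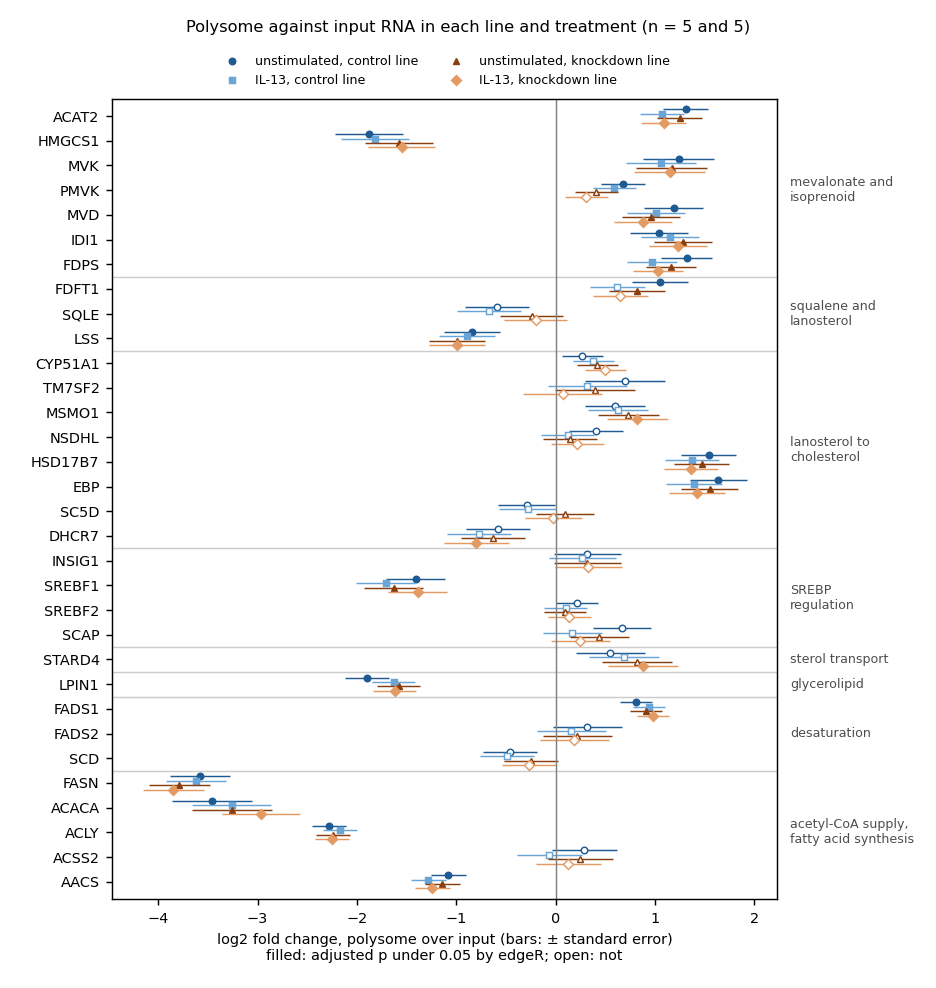
log2 fold change of polysome over input RNA (± standard error) for the 32 genes by role, in the 4 combinations of line and treatment (5 against 5 libraries each); filled symbols passed an adjusted p of 0.05 by edgeR. The 4 symbols of a gene lie close together, from FASN, at a mean of -3.71, to EBP, at a mean of 1.5.

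The ratio varied with transcript length among the members. With the length behind the deposited values, Spearman's rho across the 32 members was -0.745, and across 16733 tested genes it was -0.269; genes are not independent and share libraries, so these are descriptions. The 3 members under 0.5 of the median length (PMVK, FDPS and EBP) had a median log2 fold change of 1.12, against -0.14 for all genes of that length. The 9 members between 0.5 and 1 had a median of 1.01, against 0.19, and the 15 between 1 and 2 had a median of -0.13, against -0.31. The 5 longest, over 2 times the median, were FASN, ACACA, LPIN1, SCD and SREBF2, with a median of -1.68 against -0.92. With lengths of annotated transcripts (GENCODE) rho was -0.715 for the members and -0.383 for 13308 protein-coding genes. HMGCS1 and ACLY lay well below the median of genes of their length, and FADS1 well above it. The part of length in the members' ratios was not tested.

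**Figure D4:**
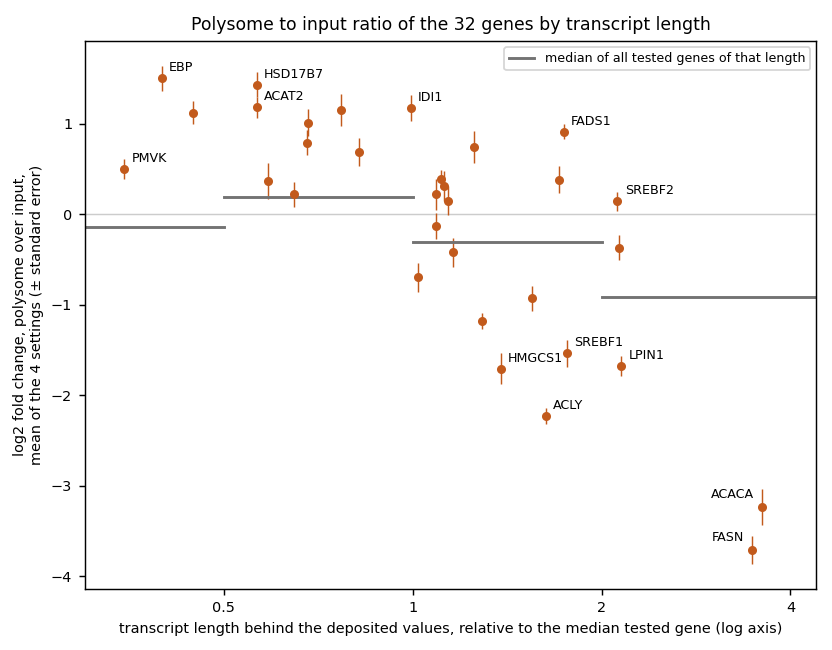
log2 fold change of polysome over input RNA (mean of the 4 combinations, ± standard error) for the 32 genes against the transcript length behind the deposited values, relative to the median tested gene (log axis); grey lines mark the median of all tested genes in each of 4 length classes. Short members lie above the grey lines and FASN and ACACA far below, with Spearman's rho of -0.745.

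A further 57 genes of sterol and lipid metabolism were listed beside the members, and all were tested. In polysome RNA 26 of them were called higher and 18 lower, with a median log2 fold change of 0.18, against 26.2% higher, 38.9% lower and a median of -0.24 for all genes. Of 16 genes of fatty acid elongation and activation, 10 were called higher and 5 lower: the elongation enzymes TECR and ELOVL1 stood at 1.16 and 1.12, and the acyl-CoA synthetases ACSL4 and ACSL3 at -2.35 and -1.48. Of 11 genes of sterol uptake and transport, 2 were called higher and 4 lower, with the lysosomal cholesterol exporters NPC2 and NPC1 at 0.90 and -2.10. Of 9 genes of SREBP processing, 5 were called higher and 1 lower, SPRING1, which supports SCAP trafficking, at -1.98. Both directions occurred within these lists, as they did among all tested genes.

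The next question was whether IL-13 changed these genes after 24 h. No member passed the test in any comparison, and in input most estimates were small and above 0. In the control line 0 of 32 members were called in input and 0 in polysome RNA (edgeR), against 0.0777% and 0.125% of all genes. In the line labelled knockdown the counts were also 0 and 0, against 0.0837% and 0.0956%. Over both lines they were 0 and 0, against 0.149% and 0.209%. In all 6 of these comparisons 0 members had an unadjusted p under 0.05, near the 1.03% to 5.28% of all genes. DESeq2's Wald test also called 0 members in each.

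Over both lines, the log2 fold change with IL-13 was above 0 for 32 of 32 members in input, with a median of 0.23, whereas 50.1% of all genes were above 0. In polysome RNA 26 of 32 were above 0, with a median of 0.14. The members varied together between libraries of one group by as much as this, so their signs are not independent. Without the input library of unstimulated control replicate 1, the median dropped from 0.23 to 0.14, and in the control line alone from 0.28 to 0.12. The polysome median dropped from 0.14 to 0.083 without IL-13 knockdown polysome replicate 2. In the same input libraries the summed level of 7 epithelial markers had a median of 1407 TPM in unstimulated and 1984 TPM in IL-13 control cells. In the line labelled knockdown the medians were 1560.3 and 2326 TPM. KRT8 and KRT18 had the highest levels of these 7. The summed level of 6 mesenchymal markers had medians of 1454 and 1384 TPM in the control line, and of 1547 and 1449 TPM in the other. The part of these markers in the result was not tested.

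MVD had the lowest unadjusted p in input. It read 49.2, 77.9, 106, 137 and 123 CPM in unstimulated control input and 116, 75.1, 171, 159 and 187 CPM with IL-13, and the groups overlapped. In the line labelled knockdown MVD read 105, 109.5, 66.7, 59.6 and 106 CPM without and 147, 130.5, 69.5, 66.7 and 122 CPM with IL-13, also with overlap. Its log2 fold change over both lines was 0.39 ± 0.207 (edgeR, unadjusted p = 0.0663, adjusted p = 1.0). FDPS had the next lowest p, with a log2 fold change of 0.32 ± 0.177 (edgeR, unadjusted p = 0.0748, adjusted p = 1.0). It read 253, 312, 433, 513 and 475 CPM in unstimulated control input and 403, 347, 621, 617 and 665 CPM with IL-13, with overlap.

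In polysome RNA the lowest unadjusted p-values belonged to ACLY at 0.19 ± 0.116 and LSS at 0.32 ± 0.199 (edgeR, adjusted p = 1.0 for both). ACLY read 106, 131, 117, 112 and 85.5 CPM in unstimulated control polysome RNA and 98.4, 135, 151, 136 and 143 CPM with IL-13, which overlapped. The regulators gave SREBF1 0.32 ± 0.205, INSIG1 0.34 ± 0.238, SREBF2 0.055 ± 0.15 and SCAP 0.025 ± 0.208 in input. In polysome RNA the same genes gave 0.29, 0.32, 0.016 and -0.32. None passed the test, and the sign of SCAP in input and of SREBF2 in both fractions turned when single libraries were left out.

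**Figure D5:**
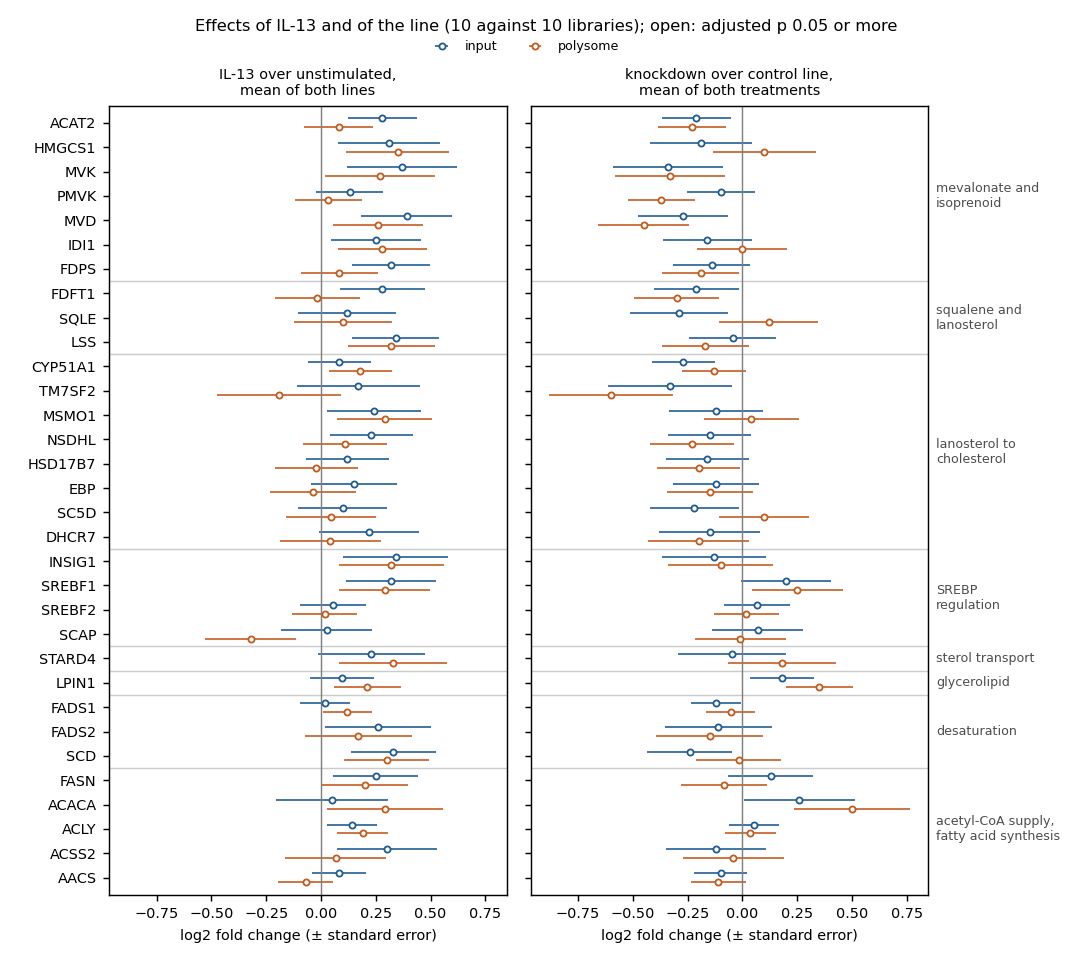
log2 fold change (± standard error) of the 32 genes with IL-13 over both lines (left) and in the line labelled knockdown against the control line over both treatments (right), in input (blue) and polysome (orange) libraries, 10 against 10; no gene passed an adjusted p of 0.05. With IL-13 all input values lie right of 0, with a median of 0.23, and between lines most input values lie left of 0, with a median of -0.13.

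The line labelled knockdown was then compared with the control line. With 1 line for each hairpin, an effect of IGF2BP3 cannot be told apart from other differences between the lines. IGF2BP3 itself was not called lower. No member passed the test here either. In input, 0 of 32 were called in unstimulated cells, with IL-13 and over both treatments (edgeR), against 0.012%, 0.0% and 0.406% of all genes. In polysome RNA 0 were called in the same 3 comparisons, against 0.0299%, 0.0896% and 1.38% of all genes. At an unadjusted p of 0.05, the input comparisons held 0 members each, against 2.97%, 3.0% and 5.87% of all genes. The polysome comparisons held 1 unstimulated (LPIN1), 1 with IL-13 (PMVK) and 4 over both treatments. Among all genes, 7.42%, 9.92% and 14.7% had an unadjusted p under 0.05 in the same 3 polysome comparisons. With 32 members, these counts are near the background and are not read as a result. DESeq2's Wald test called 0 members in all 6.

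The 4 members with unadjusted p under 0.05 in polysome RNA over both treatments were PMVK at -0.37 ± 0.154, LPIN1 at 0.35 ± 0.153, MVD at -0.45 ± 0.207 and TM7SF2, a sterol reductase, at -0.60 (edgeR, adjusted p = 0.228, 0.264, 0.292 and 0.309). PMVK read 69.3, 86, 65, 41.4 and 51.4 CPM in IL-13 control polysome RNA and 47.1, 49.7, 38.1, 45.6 and 41.6 CPM in the line labelled knockdown. The control values spread over a wider range and overlapped the others. LPIN1 read 7.72, 11.2, 9.70, 3.61 and 8.81 CPM in unstimulated control polysome RNA and 9.48, 14, 8.51, 12.1 and 11.2 CPM in the other line, also with overlap.

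In input, CYP51A1, lanosterol demethylase, had the lowest unadjusted p at -0.27 ± 0.144 (edgeR, adjusted p = 0.962). It read 102, 165, 189, 142 and 188 CPM in unstimulated control input and 131, 152, 135, 86.3 and 136 CPM in the line labelled knockdown, with overlap. MVK gave -0.34 ± 0.249 (edgeR, adjusted p = 1.0). Over both treatments 25 of 32 members were below 0 in input (median -0.13) and 22 of 32 in polysome RNA (median -0.093). The input median became -0.21 without unstimulated control replicate 1 and -0.082 without IL-13 control replicate 4. In unstimulated input alone the median of -0.072 became -0.23 without unstimulated control replicate 1 and 0.037 without knockdown replicate 4. In polysome RNA over both treatments it became 0.0055 without the shallow library of unstimulated knockdown replicate 5, so the sign of the median in unstimulated input and in polysome RNA rested on single libraries. SREBF1, INSIG1, SREBF2 and SCAP had values of 0.20, -0.13, 0.065 and 0.070 in input. In polysome RNA they had 0.25, -0.10, 0.018 and -0.0094, and the signs of INSIG1, SREBF2 and SCAP turned there when single libraries were left out.

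Interaction terms asked whether the IL-13 response differed between the lines. In input and in polysome RNA 0 of 32 members were called (edgeR), against 0.0% and 0.0% of all genes. An unadjusted p under 0.05 was held by 0 members in either, against 0.914% and 3.36% of all genes. NSDHL had the lowest p in input at -0.32 ± 0.383, and SREBF1 in polysome RNA at 0.48 ± 0.415 (edgeR, adjusted p = 1.0 for both). SREBF1 read 60.2, 32.1, 45.8, 52.3 and 40.5 CPM in unstimulated and 16.1, 74.1, 45.3, 62.5 and 40.3 CPM in IL-13 control polysome RNA. In the line labelled knockdown it read 34.9, 47.6, 68.9, 61.4 and 15.2 CPM without and 58, 80.5, 42.9, 65 and 90.1 CPM with IL-13. The values of all 4 groups overlapped.

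The last comparisons asked whether the share of an mRNA on polysomes shifted, as the difference between the polysome and the input effect. For the line 0 of 32 members were called (edgeR, 0.0% of all genes), and for IL-13 0 of 32 (0.0% of all genes). In both shifts 0 members had an unadjusted p under 0.05, against 1.91% and 1.64% of all genes. DESeq2's Wald test called 0 members in these and in both interaction terms. SQLE had the lowest p for the line at 0.41 ± 0.317 and SCAP for IL-13 at -0.35 ± 0.294 (edgeR, adjusted p = 1.0 for both). The further 57 genes of the pathway likewise had 0 calls with IL-13, between lines and in both shifts over the mean comparisons. The low polysome to input ratios of FASN, ACACA, ACLY and HMGCS1 thus stood in all 4 combinations. Their log2 values were -3.58 to -3.85, -2.97 to -3.46, -2.17 to -2.28 and -1.55 to -1.88.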

How the data were processed

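RNA was measured by stranded, poly(A)-selected Frac-seq in 40 libraries of 8 groups, per the labels' protocols. The authors deposited estimated counts and TPM per gene. The submitters' processing notes name Trimmomatic, MultiQC, Salmon and DESeq2; versions, build and annotation are not given in the sources used here. The deposited estimated counts were made whole by rounding (whole counts had been planned for), and the deposited TPM, whose sums reach 82.3% to 85.9% of the full scale, served only for levels.

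Genes passed edgeR's filterByExpr over the 8 groups (16735, at least 99.91% of counts). One edgeR 4.0.16 quasi-likelihood fit (R 4.3.3, TMM scaling, 32 residual degrees of freedom, typical biological coefficient of variation 0.43) gave every comparison as a contrast, with Benjamini-Hochberg adjustment over all genes and a threshold of 0.05. CPM are TMM-scaled. DESeq2 1.42.0 was an alternative. The code was tested on simulated data, with 2-fold changes in 200 genes drawn from all levels. Of these, 70.5% were called for polysome against input, over the mean of the 4 combinations. For IL-13 in input over both lines 53% were called, and for the line in polysome RNA over both treatments 43%. A count of 0 members called therefore does not show that the members were unchanged. No 2 replicates were copies (lowest chi-square per degree of freedom 16.18 over 80 pairs).

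The members and lists were chosen with earlier results of these data known. Members named per comparison were the 4 highest and 4 lowest log2 ratios for polysome against input, the 2 with the lowest p in other mean comparisons (1 for interactions and shifts), and the 4 SREBP regulators; the 3 highest and 3 lowest in input TPM were named for level. Further genes were named after their values were seen.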

Additional observations from a re-analysis of the deposited data

Results flagged for a closer look

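The values of 21 named members in 8 groups made 168 sets of 5 libraries. In 4 of these sets 1 value lay far from the others by Dixon's criterion. Chance meets this criterion in about 1 in 20 sets, so 4 is no more than chance would give. Of the flagged values, 0 came from unstimulated control replicate 1. PMVK stood at 49.6 CPM in replicate 4 of unstimulated control input, above 27.2 to 33.5 CPM in the other 4. FDPS stood at 1405 CPM in replicate 2 of IL-13 knockdown polysome RNA, above 709 to 891 CPM. NSDHL stood at 226 CPM in replicate 2 of IL-13 control polysome RNA, above 100.3 to 128 CPM. FASN stood at 25.4 CPM in replicate 5 of unstimulated knockdown polysome RNA, a library of 1816848 counts, below 64.6 to 76 CPM.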

How the results depend on the processing

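Every count of members called stayed within 1.5 times its value under all alternatives run: DESeq2 size factors, DESeq2's Wald test, no filter, a length offset, 37 libraries of at least 5000000 counts, 38 libraries without both of unstimulated control replicate 1, libraries of 1 fraction, the groups compared alone, the replicate block, the 2 libraries of a line, treatment and number as a block, and each library left out. For the mean of the 4 combinations, members called ran from 24 to 29 with 1 library left out. Fits on the libraries compared alone were made for comparisons of 2 groups.

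The replicate numbers were not taken to pair the libraries, since deviations of the input and polysome library of a number correlated at -0.48 to 0.627 (median 0.00135), and over 0.1 in 9 of 20 pairs. Unstimulated control replicate 1 nevertheless had high stress genes in both fractions. With the replicate number as a replicate block, 14 members were higher and 11 lower in polysome RNA, as without it, and with the 2 libraries of a line, treatment and number as a replicate block also 14 and 11.

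Among the members named in each comparison, signs turned for small uncalled log2 values of SCAP, SREBF2 and INSIG1. Between lines in polysome RNA, 10 of all 32 members were above 0, and 17 in 37 libraries (median 0.020); unstimulated, 10 became 21. With IL-13 in input SCAP was -0.024 in 38 libraries (-0.024 to 0.076 with 1 library left out), and SREBF2 ran from -0.0054 to 0.12. With IL-13 in polysome RNA SREBF2 was -0.085 in 37 and -0.0054 in 38 libraries (-0.058 to 0.079). Between lines in polysome RNA SCAP was 0.0072 with DESeq2 size factors and by its Wald test, 0.043 with the length offset, 0.060 in 37 libraries and 0.026 in polysome libraries alone (-0.11 to 0.15), SREBF2 was -0.0032 in 38 libraries (-0.043 to 0.15), and INSIG1 ran from -0.22 to 0.013. The cause was not tested. For polysome against input, INSIG1 was also called with DESeq2 size factors (0.38), by the Wald test, with the length offset and the block of 2 libraries, and in 37 and 38 libraries, and SREBF2 with the length offset (0.25) and in 37 libraries (0.29). Depth limits the 3 shallow polysome libraries most.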
